A study of Mus musculus with 35 samples.

Results

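Arg1, Nos2, Mrc1, Retnla, Il4ra and Il10 are genes by which alternatively and classically activated macrophages are told apart, and each was read here in 35 mouse aortas. These 6 genes were chosen by the gene name that the array files give each probe. They were covered by 7 of the 41174 different probes, and are 6 of the 27597 genes on the array. Of the 6, 4 genes (Arg1, Mrc1, Retnla and Il4ra) passed the filter on dim probes and were tested among 18671 genes, and Nos2 and Il10 did not pass.

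Macrophages exposed to interleukin 4 or interleukin 13 take up an alternatively activated state. Both cytokines signal through the receptor chain encoded by Il4ra and the factor STAT6, which raises Arg1, Mrc1 and Retnla in mouse cells. Interferon gamma and bacterial products instead raise Nos2, whose enzyme competes with arginase 1 for arginine, and interleukin 10 restrains inflammatory macrophages. Macrophages gather in the wall of the angiotensin II-infused aorta, where they take part in both matrix breakdown and repair.

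The arrays measured RNA of the whole suprarenal aorta, 1 aorta per array, from male ApoE-/- mice, which lack apolipoprotein E and carry high plasma cholesterol. All groups, controls included, share that deletion. Minipumps placed at 12 to 14 weeks of age delivered either angiotensin II (Ang II, 1000 ng/kg/min) or saline. Saline was given for 7 days (6 aortas), 14 days (6) or 28 days (5). Ang II was given for 7 days without dissection (4 aortas), for 14 days (5) or for 28 days (6), and 3 further aortas after 7 days of Ang II carried a dissected aneurysm. Each level below is a log2 ratio of the aorta's RNA to one common mouse reference RNA. A difference of 1 between groups is a doubling of that computed ratio. The ratio includes an offset of 50 intensity units in each channel, so folds of dim genes depend on that offset. Levels of different genes are not compared with each other.

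The tissue label was checked against marker genes. The mean log2 ratio of 10 contractile smooth muscle genes lay between 1.54 and 4.66 in all 35 aortas, and that of 12 white and brown adipocyte genes lay between 3.56 and 5.86. The share of spots well above background ran from 45% to 84.8% in the aorta channel. The highest share came from replicate 4 of the Ang II 14-day group, and replicate 2 of that group had the highest mean of 12 hepatocyte genes, 5.92. On 3 saline arrays (7-day replicate 5 and 28-day replicates 2 and 4) the fitted background was far wider than on the others, with an SD of 124.8 to 455.3 intensity units against 0.9 to 47. Their log2 ratios were compressed, rising by 0.239 to 0.332 for each unit of the scanner software's own log2 ratio, against 0.424 to 0.595 on the other 32 arrays. All 3 dissected arrays were scanned on the later of 2 scan days. That day and dissection therefore cannot be told apart for differences from arrays of the other day. For the members, values within the later day are given beside the dissected results against saline. Among the 4 non-dissected Ang II 7-day arrays, 3 were scanned on the earlier day. Genes called between dissected and non-dissected aortas fell from 1500 to 862 with the scan day as a block. Values of list genes are given only from the fit without scan day. In bulk tissue, fewer cells of a type and less RNA per cell cannot be told apart.

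The probes that read the enzymes competing for arginine are shown because the Arg1 result and the lack of a Nos2 result each rest on 1 such sequence. Both are 60 bases long and are given 5′ to 3′ in lower case as printed on the array.
Arg1: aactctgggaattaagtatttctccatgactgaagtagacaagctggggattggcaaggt
Nos2: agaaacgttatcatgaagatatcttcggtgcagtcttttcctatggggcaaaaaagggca
Per the array files, the Arg1 probe lies on the minus strand of mm8 at chr10:24605804-24605863 and the Nos2 probe on the plus strand of mm8 at chr11:78775853-78775912. The exon each probe lies in was not looked up here, because no mm8 annotation was used. Retnla had a pair of probes that share 50 of their 60 bases, so they are not independent readings.

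The Retnla promoter is shown because it alone among the members' windows held the spaced palindrome TTCNNNNGAA, the form of element that STAT6 prefers. The window holds the 250 bases before the RefSeq start on the plus strand of GRCm38.p6, chr16:48842359-48842608, and the capitals mark the match.
Retnla promoter: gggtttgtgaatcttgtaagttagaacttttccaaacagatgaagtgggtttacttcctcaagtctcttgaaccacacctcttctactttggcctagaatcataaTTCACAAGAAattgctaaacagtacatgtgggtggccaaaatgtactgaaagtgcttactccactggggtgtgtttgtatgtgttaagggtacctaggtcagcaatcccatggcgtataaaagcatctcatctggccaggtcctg
The motif reads the same on both strands and occurred in 5.85% of 32851 promoter windows of this length. The form with 1 base less between its arms, TTCNNNGAA, occurred in 7.02% of the windows and in none of the members'. RefSeq windows were found for 3 of the 6 members, Retnla, Mrc1 and Il4ra. A match of letters is a description and not a measured binding site.

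Il4ra, the receptor chain shared by interleukin 4 and interleukin 13, was higher after 7 days of Ang II. In the saline 7-day aortas its log2 ratio had a minimum of -0.74, a median of -0.07 and a maximum of 0.15. In the 4 non-dissected Ang II aortas it was 1.48, 1.35, 0.93 and 1.21. Every treated aorta lay above every saline aorta. The difference was 1.45 (SE 0.28), a 2.73-fold rise, with a Benjamini-Hochberg adjusted p of 0.000324 in limma over all 18671 genes. Within the earlier scan day the rise was 1.83 (adjusted p = 0.00116 in limma), and within the later day, which holds 1 Ang II 7-day array, it was 0.86 (adjusted p = 0.439 in limma).

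The dissected aortas had Il4ra log2 ratios of 2.17, 1.72 and 1.61, all above the non-dissected and the saline 7-day aortas. They exceeded the saline 7-day aortas by 2.04 (SE 0.30), a 4.11-fold rise (adjusted p = 4.56e-06 in limma), and within the later scan day by 1.76 (adjusted p = 0.00243). The dissected and non-dissected comparisons use the same 6 saline aortas. Set directly against the non-dissected aortas, the dissected ones were not distinguishable at the threshold: the difference was 0.59 with a 95% interval from -0.07 to 1.26 (adjusted p = 0.295 in limma).

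At 14 days Il4ra stood at 0.34, 0.73, 0.95, 1.00 and 1.10 after Ang II, against a range from -0.31 to 0.88 and a median of -0.12 after saline. The groups overlapped, and the difference of 0.71 (SE 0.26) did not pass (adjusted p = 0.129 in limma). At 28 days the Ang II aortas ran from 0.00 to 1.65 with a median of 0.60, and the saline aortas read 0.13, -0.19, 0.02, -0.32 and -1.14. That difference of 0.98 also missed the threshold (adjusted p = 0.0604 in limma). Averaged over the 3 times, Il4ra rose by 1.05 (SE 0.15), or 2.07-fold (adjusted p = 7.94e-06 in limma). The effect of Ang II on Il4ra was not shown to differ among the times (adjusted p = 0.416).

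**Figure D1:**
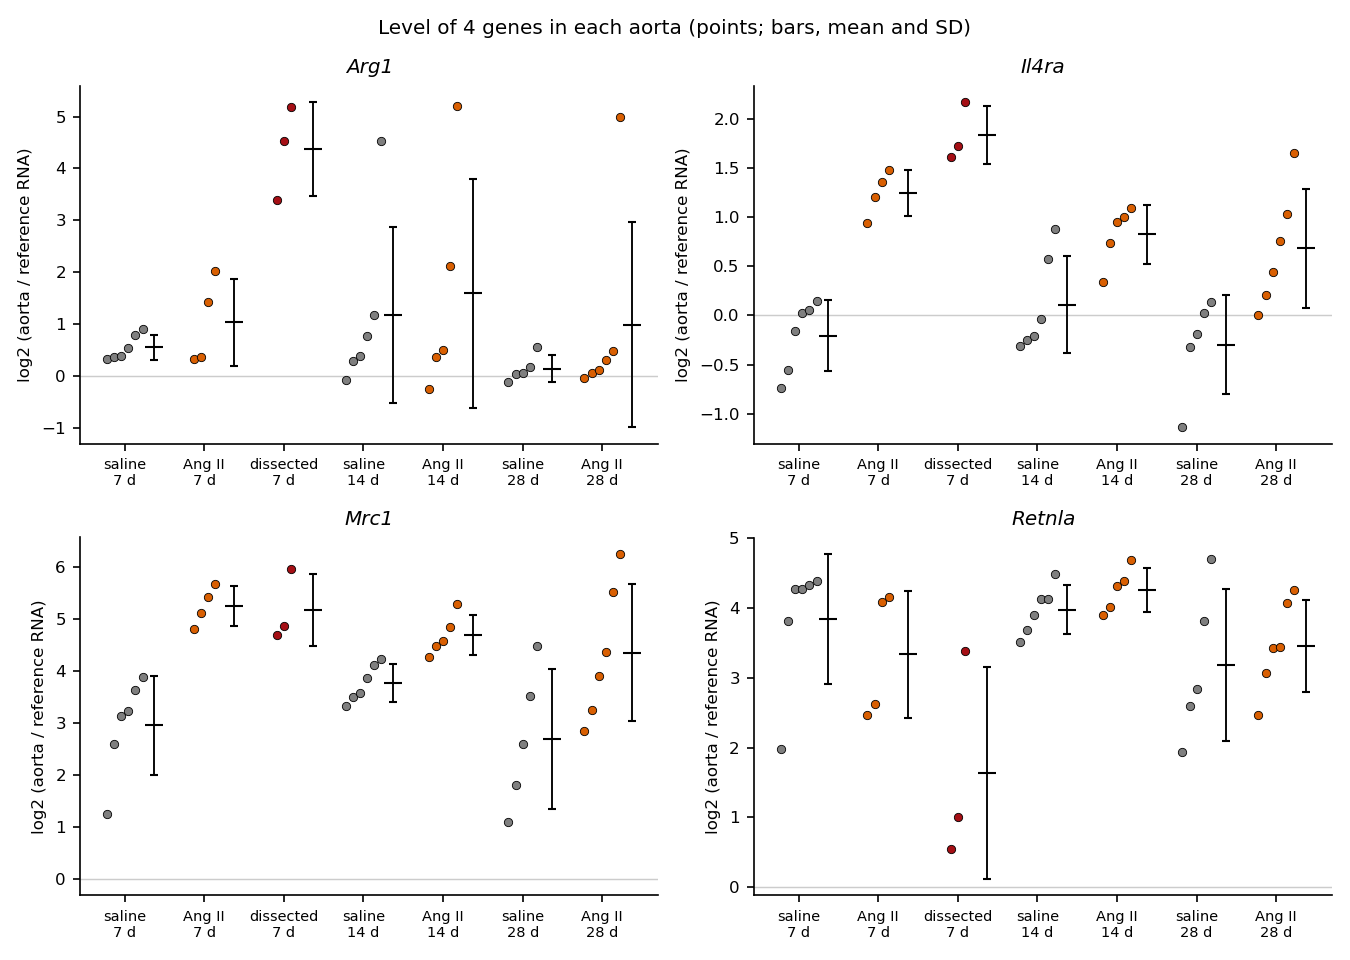
The log2 ratio of aorta to reference RNA (vertical axis) of Arg1, Il4ra, Mrc1 and Retnla in each of the 35 aortas (points), by group, with the group mean and SD beside the points. The 3 dissected aortas hold Arg1 between 3.39 and 5.18, while single aortas of the saline 14-day, Ang II 14-day and Ang II 28-day groups reach 4.54, 5.21 and 5.00.

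Arg1, the enzyme that turns arginine into ornithine and urea, was high in dissected aortas. The 6 saline 7-day aortas had log2 ratios from 0.33 to 0.91 with a median of 0.46, and the 4 non-dissected Ang II aortas read 1.44, 0.36, 0.33 and 2.02. The 3 dissected aortas read 4.53, 3.39 and 5.18. All 3 lay above every other 7-day aorta, while the non-dissected Ang II aortas overlapped saline, with 2 above its range and 2 at its lower end.

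Dissected aortas exceeded saline by 3.81 (SE 0.97; 95% interval 1.84 to 5.79), which is 14.1-fold (adjusted p = 0.00243 in limma). Within the later scan day the difference was 3.94 (adjusted p = 0.0178 in limma), and with a background offset of 0 it was 4.67 (adjusted p = 0.00173). The reference was well above background for Arg1 on 13 of 35 arrays, and with the aorta channel alone the difference was 3.20 (adjusted p = 0.00434 in limma). They exceeded the non-dissected aortas by 3.33 (SE 1.05), or 10.1-fold, with an adjusted p of 0.045 in limma. This last call was close to the threshold: leaving out single aortas gave differences between 2.92 and 3.82 with adjusted p from 0.0418 to 0.161, and within the later scan day, against 1 non-dissected aorta, the value was 4.04 (adjusted p = 0.327). Without the 3 compressed saline arrays, which enter this comparison only through the shared spread, the same difference had an adjusted p of 0.0558 in limma. In the non-dissected aortas Arg1 differed from saline by 0.48 with a 95% interval from -1.32 to 2.29 (adjusted p = 0.737 in limma).

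At the later times most aortas had low Arg1 and a few had very high values. Of 6 saline 14-day aortas, 5 read between -0.07 and 1.18 and replicate 4 read 4.54. The Ang II 14-day aortas read 0.51, 5.21, 0.38, -0.25 and 2.12. In the Ang II 28-day group 5 aortas lay between -0.04 and 0.49 and replicate 5 read 5.00, whereas the 5 saline 28-day aortas read 0.57, 0.04, 0.18, 0.05 and -0.11. With such spread neither time separated the groups: the differences were 0.41 at 14 days (adjusted p = 0.827 in limma) and 0.85 at 28 days (adjusted p = 0.694 in limma). Without replicate 5 of the Ang II group the 28-day difference was 0.04.

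Arg1 is also abundant in liver cells, so marker genes of other cell types, neutrophils among them, were read beside it. The 12 measured hepatocyte genes averaged 0.77, 0.62 and 0.68 in the dissected aortas, at the low end of the saline 7-day range of 0.44 to 3.82. The 0.44 came from the compressed replicate 5, and the remaining saline 7-day aortas ran from 1.98 to 3.82. Low means were not particular to dissection: the non-dissected Ang II 7-day aortas ran from 0.59 to 1.59. Between dissected and non-dissected aortas 0 of the 12 genes were called in limma. Among the hepatocyte genes Alb (albumin) was not well above background on any dissected array and was at least 22.1-fold lower than in saline. Against saline, 3 of the 12 were called lower in dissected aortas and 0 higher in limma. In those 3 aortas the mean of 10 neutrophil genes was 2.53, 1.60 and 1.76, against 0.45 to 1.66 in saline and 0.72 to 1.17 in non-dissected Ang II aortas. Of the 10 neutrophil genes 4 were higher than in saline and 0 lower, where 18.9% of all genes were called higher and 17.6% lower. Among the 4, Csf3r, the receptor for granulocyte colony-stimulating factor, was higher by 2.85 (adjusted p = 1.45e-05 in limma) and S100a8 by 2.48 (adjusted p = 0.0117 in limma). The part of neutrophils in the Arg1 level was not tested.

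The single high aortas differed in these markers. Replicate 2 of the Ang II 14-day group, with Arg1 at 5.21, had the highest hepatocyte mean of all aortas, 5.92. Replicate 4 of the saline 14-day group, with Arg1 at 4.54, had a hepatocyte mean of 3.39, a neutrophil mean of 2.24 and a macrophage mean of 0.92, beside 0.91 in replicate 6 and at most 0.31 in the remaining saline aortas. Replicate 5 of the Ang II 28-day group, with Arg1 at 5.00, had a hepatocyte mean of 0.54, a neutrophil mean of 1.23 and a macrophage mean of 1.60. The macrophage and neutrophil means were the highest of its group. So were its means of T and B lymphocyte genes (2.22), classical activation markers (1.125) and interleukin 10 receptor and signalling genes (0.82).

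**Figure D2:**
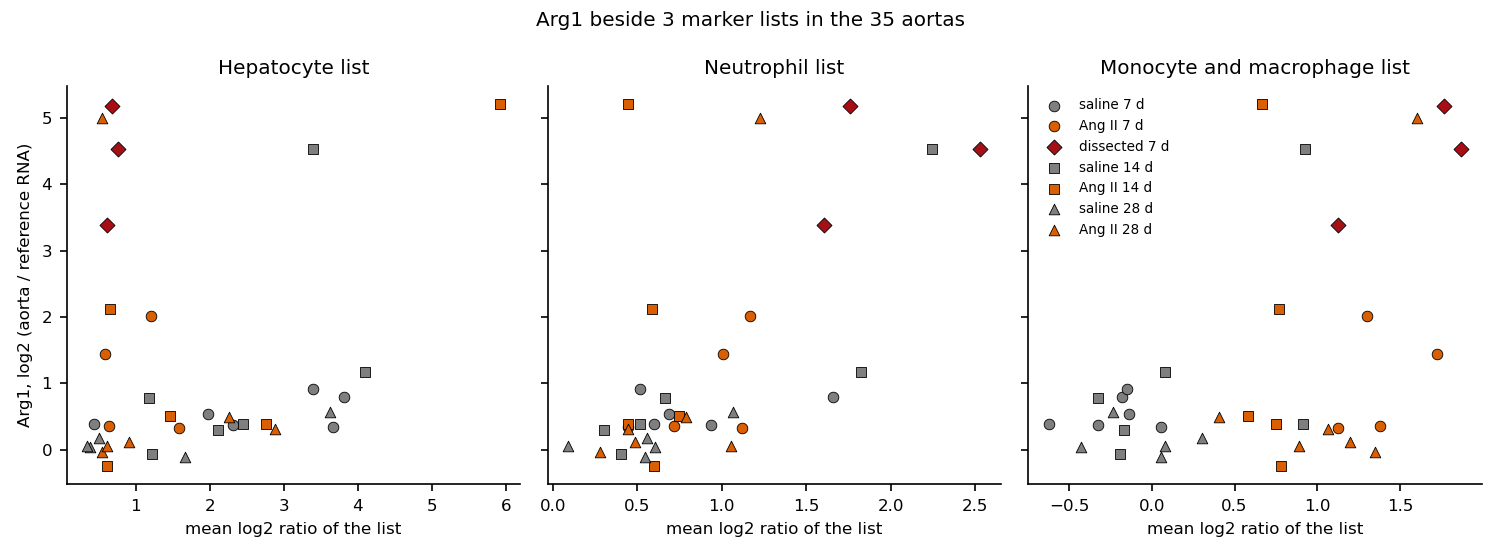
Arg1 (vertical axis, log2 ratio of aorta to reference) against the mean log2 ratio of the hepatocyte, neutrophil and macrophage gene lists (horizontal axes) in the 35 aortas, 1 point each, with symbols and colours for the 7 groups. The dissected aortas combine high Arg1 with hepatocyte means of 0.62 to 0.77, while 1 Ang II 14-day aorta combines Arg1 at 5.21 with a hepatocyte mean of 5.92.

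Nos2, the inducible nitric oxide synthase of classically activated macrophages, was not detected. Its probe, printed on 10 spots of each array, was not well above background in the aorta channel of any of the 35 arrays, dissected ones included. Its signal ran between 71 and 102 intensity units, and the reference channel was not above background either. Nos2 was therefore given no fold and no test. This reading sets no level for the gene, since a signal under the background is only a bound.

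Mrc1, the mannose receptor CD206 of tissue macrophages, was higher in both kinds of Ang II aorta at 7 days. The saline aortas read 2.60, 3.89, 3.23, 3.64, 1.24 and 3.14, from a lowest value in replicate 5, one of the compressed arrays, to 3.89. The non-dissected Ang II aortas read 5.68, 5.42, 5.11 and 4.80, and the dissected ones 5.96, 4.69 and 4.88. All 7 treated aortas exceeded all 6 saline ones.

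The rise over saline was 2.30 (SE 0.56), or 4.91-fold, in non-dissected aortas (adjusted p = 0.0034 in limma). It was 2.22 (SE 0.62), or 4.66-fold, in dissected aortas (adjusted p = 0.00515 in limma). Within the scan days the non-dissected rise was 2.06 on the earlier day (adjusted p = 0.0698 in limma) and 2.44 on the later day (adjusted p = 0.24), and the dissected rise on the later day was 2.50 (adjusted p = 0.0119). The reference was well above background for Mrc1 on 10 of 35 arrays, and with the aorta channel alone the rises were 1.96 (adjusted p = 0.000321 in limma) and 1.72 (adjusted p = 0.00146). Without the compressed saline arrays the rises were 1.95 (adjusted p = 0.00396 in limma) and 1.88 (adjusted p = 0.0057). Without dissected replicate 1 the dissected rise was 1.83 (adjusted p = 0.0551 in limma). The dissected and non-dissected groups differed by -0.08 with a 95% interval from -1.43 to 1.28, which is wide (adjusted p = 0.973 in limma).

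At 14 days the Ang II aortas read 5.29, 4.85, 4.58, 4.28 and 4.49, and the saline aortas ran from 3.32 to 4.24 with a median of 3.73. These groups did not overlap, but the difference of 0.93 (SE 0.53) did not pass in the fit over all genes (adjusted p = 0.348 in limma). At 28 days the Ang II aortas spread from 2.84 to 6.26 around a median of 4.13, across much of the saline range of 1.09 to 4.48, and the difference of 1.66 did not pass (adjusted p = 0.123 in limma). Without the compressed saline arrays, 2 of which are in this saline group, it was 0.82. Averaged over the times Mrc1 rose by 1.63 (SE 0.31), or 3.09-fold (adjusted p = 0.000257 in limma). The effect was not shown to differ among the times (adjusted p = 0.477).

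Retnla, which encodes the secreted resistin-like molecule alpha (FIZZ1), was lower in dissected than in saline aortas on most of the scales tried, and not on all of them. In the saline 7-day aortas it read 4.33, 3.81, 4.27, 4.38, 1.98 and 4.27, the low value again in the compressed replicate 5, which read 3.67 when no local background was subtracted. The non-dissected Ang II aortas split into 4.09 and 4.16 on the one side and 2.62 and 2.47 on the other. The dissected aortas read 0.54, 3.38 and 1.00, and the probe was well above background in 2 of these 3. Dissected replicates 1 and 3 lay below every saline aorta, and replicate 2 lay within their range.

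The dissected aortas fell short of saline by a log2 difference of -2.20 (SE 0.56), or 4.6-fold (adjusted p = 0.00265 in limma). This call held in 14 of 19 alternatives: with a background offset of 0 the difference was -0.91 (adjusted p = 0.304 in limma), and with scale normalisation between arrays -2.33 (adjusted p = 0.269). The second, overlapping probe read -0.16, 2.07 and 1.36 in the dissected aortas and gave a difference of -2.66 (SE 0.57; adjusted p = 0.000473 in limma). Against the non-dissected aortas the difference was -1.69 (SE 0.61) on the first probe, which did not pass (adjusted p = 0.0826 in limma), and -2.10 on the second, which did (adjusted p = 0.0323). Within the later scan day the difference from saline was -1.90 (adjusted p = 0.0631 in limma), and without dissected replicate 1 it was -1.65 (adjusted p = 0.0515). Without the compressed saline arrays it was -2.57 (adjusted p = 0.000154 in limma), and the dissected aortas differed from the non-dissected ones by -1.69 with an adjusted p of 0.036.

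The value for Retnla differed among the ways of computing it, and which step of the processing decides it was not tested. The reference RNA was not well above background for Retnla on any dissected array, where its signal was 71, 81 and 69 intensity units, against 133 to 385 on the saline 7-day arrays. The aorta signal before any correction was 87, 330 and 114 units on the dissected arrays, 901 to 2046 on the saline arrays, and 770, 255, 1213 and 297 on the non-dissected Ang II arrays. Thus the uncorrected aorta signal of all 3 dissected arrays lay below that of all 6 saline arrays. With the aorta channel alone the dissected log2 signals were 6.37, 8.84 and 7.36 against 9.27 to 11.07 in saline, a difference of -2.78 (adjusted p = 0.000319 in limma). With no local background subtracted the ratio to the reference gave -2.51 (adjusted p = 2.3e-05 in limma). With the scanner software's ratio the dissected aortas read 2.85, 6.61 and 5.33 against 4.06 to 5.43, and the difference was 0.048 (adjusted p = 0.954 in limma).

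**Figure D3:**
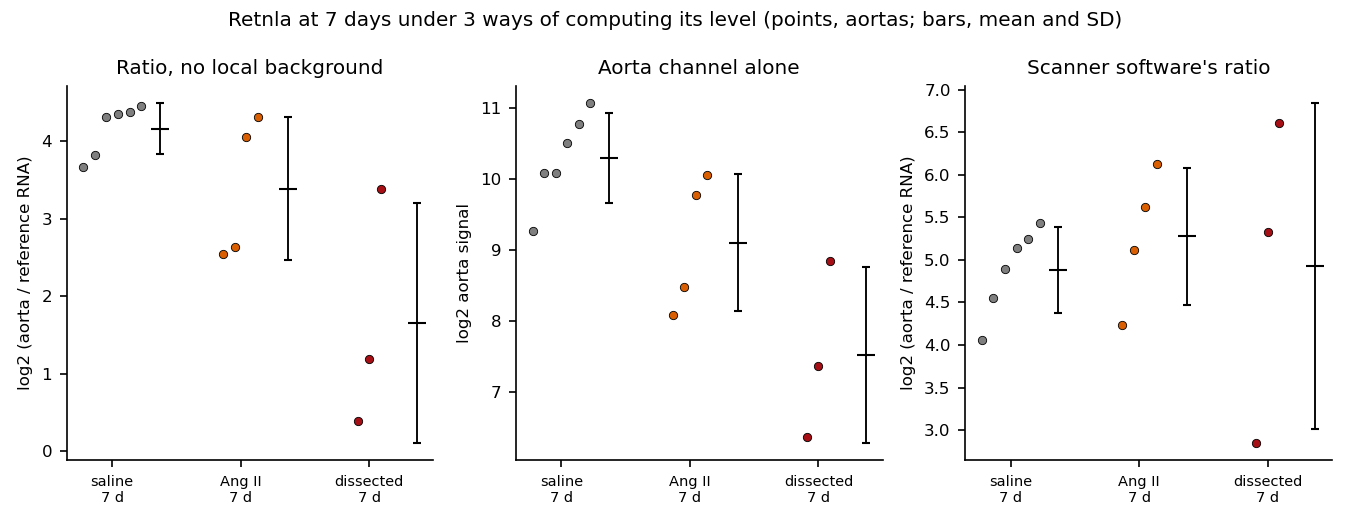
Retnla in the 13 aortas of the 7-day groups under 3 ways of computing its level: a log2 ratio with no local background subtracted, the log2 signal of the aorta channel alone, and the log2 ratio of the scanner software (points, aortas; bars, mean and SD). On the first pair of scales the 3 dissected aortas lie below all 6 saline aortas, and on the third they span 2.85 to 6.61, beyond both ends of the saline range.

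Outside dissection Retnla gave no call. The non-dissected Ang II aortas differed from saline at 7 days by -0.51 (SE 0.52; adjusted p = 0.502 in limma). At 14 days the Ang II aortas read 4.69, 4.39, 4.31, 3.89 and 4.02 against a saline range of 3.51 to 4.49, and the difference was 0.29 (adjusted p = 0.788 in limma). At 28 days the ranges were 2.46 to 4.26 after Ang II and 1.94 to 4.71 after saline, with a difference of 0.28 (adjusted p = 0.855 in limma). The mean over times was 0.02 (adjusted p = 0.971 in limma).

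Il10, the cytokine that restrains macrophage activation, was well above background in the aorta channel of 1 of the 35 arrays. That was replicate 4 of the Ang II 14-day group, the array with the highest share of spots well above background (84.8%). Its aorta signal lay between 74 and 135 intensity units, while the reference RNA was above background on all 35. Its log2 ratios of -1.08 to -0.09 therefore give only an upper bound for the aorta, and no fold or test is given. Neither in saline nor in dissected aortas was Il10 distinguishable from the background.

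Read together at 7 days, 2 of the 4 tested members were called in non-dissected Ang II aortas, Il4ra and Mrc1, both higher. Of all genes 27.1% were called in that comparison, and 14.5% were called higher. In dissected aortas the 4 tested members were all called, 3 higher and Retnla lower, where 36.5% of all genes were called, 18.9% higher and 17.6% lower. Between dissected and non-dissected aortas 1 of 4 was called, Arg1, which was higher, against 8.03% of all genes in either direction and 3.06% higher. At 14 days 0 of 4 members were called, where 2.4% of genes were, and at 28 days 0 of 4, where 0.9% were. At an unadjusted p under 0.05 these counts in limma were 1 of 4 at 14 days (Il4ra), where 18.4% of all genes were under it, and 2 of 4 at 28 days (Il4ra and Mrc1), where 15.1% were. In the mean over times 2 of 4 were called, both higher, where 27.2% of genes were called and 15.6% higher. With only 4 members these counts are a description. For the difference in effect among the times 0 of 4 members passed in limma, and 1.48% of all genes did; 0 of 4 changed across the saline times, where 0.503% of genes did, and 0 of 4 had an unadjusted p under 0.05 in either test, where 20.5% and 12.7% of all genes did.

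**Figure D4:**
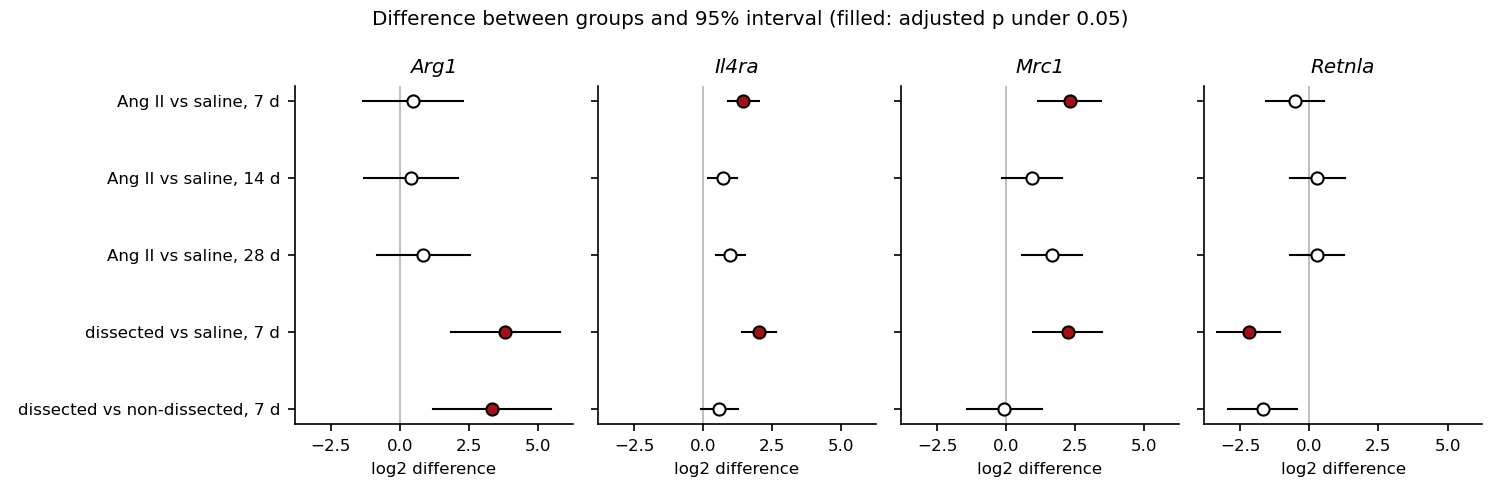
Log2 differences between groups (points) with 95% intervals (lines) for Arg1, Il4ra, Mrc1 and Retnla in 5 comparisons; filled points have an adjusted p under 0.05. Mrc1 and Il4ra are filled in both 7-day comparisons with saline, and Arg1 only in the comparisons that involve dissected aortas.

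Ordered by group mean, each member had its own sequence of levels. Arg1 ran from 0.15 in saline at 28 days through 0.56, 0.99, 1.04, 1.19 and 1.59 to 4.37 in dissected aortas. Only the last step, from Ang II at 14 days, passed the threshold (adjusted p = 0.0484 in limma). For the other neighbours the adjusted p in limma was 0.809 to 0.988. The dissected values, 3.39 to 5.18, lay within the Ang II 14-day range of -0.25 to 5.21. Il4ra ran from -0.30 in saline at 28 days to 1.83 in dissected aortas with no neighbouring groups distinguishable (adjusted p of 0.274 or more in limma). The 3 saline groups stood below the 4 Ang II groups in the mean of Il4ra and of Mrc1, and did so too with no local background subtracted, with the aorta channel alone and with the scanner software's ratio.

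For Mrc1 and Retnla the place of saline at 28 days changed with the 2 compressed arrays of that group. Mrc1 ran from 2.70 in saline at 28 days to 5.25 in non-dissected Ang II at 7 days, with no neighbours distinguishable. With no local background subtracted saline at 28 days averaged 4.13, the highest of the saline groups (3.38 at 7 days and 3.92 at 14 days). Retnla ran from 1.64 in dissected aortas over 3.18 in saline at 28 days (adjusted p = 0.0423 in limma for that step) to 4.26 in Ang II at 14 days. With no local background the dissected aortas stayed lowest at 1.65, followed by non-dissected Ang II at 3.39, while saline at 28 days averaged 4.11. With the scanner software's ratio the 7 Retnla means lay between 4.75 and 5.28 with the dissected aortas inside that range at 4.93, so the order for Retnla holds only on the scales that place the dissected aortas lowest.

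The monocyte and macrophage markers, among other lists, moved with Il4ra and Mrc1. Of 17 measured markers, 14 rose and 0 fell at 7 days in non-dissected aortas, with a median difference of 1.81 beside -0.0035 over all genes, of which 14.5% were called higher. In dissected aortas 12 rose, with a median of 2.20 beside -0.0367 over all genes, of which 18.9% were called higher. Among them Ccr2, the chemokine receptor of inflammatory monocytes, rose by 3.16 and 2.84, and Fcgr1, a high-affinity antibody receptor, by 2.81 and 3.77. The mean of the list ran from -0.62 to 0.05 in saline 7-day aortas, 1.13 to 1.72 in non-dissected and 1.13 to 1.87 in dissected ones. Between the latter groups 0 of 17 markers passed in limma (3 had an unadjusted p under 0.05), with a median of 0.14. Fibroblast and adventitia genes rose against saline too, 8 of 10 in non-dissected and 4 of 10 in dissected aortas, and 0 fell.

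With the mean of these macrophage markers subtracted from each array, Il4ra differed from saline by -0.16 in non-dissected and 0.22 in dissected aortas (adjusted p = 0.476 in limma for the latter), and Mrc1 by 0.69 (adjusted p = 0.179) and 0.40 (adjusted p = 0.468). Arg1 in dissected aortas remained 2.00 above saline and Retnla lay 4.02 below saline. The subtraction takes the same value from every gene of an array, so these are only levels relative to the list. With it 17576 of 18671 genes were called against saline in non-dissected aortas at 7 days, and 17566 in dissected ones. A call lost or kept here therefore carries little weight, and the part of macrophage number in each result was not tested.

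Of 15 tested genes of interleukin 4 and 13 signalling other than the receptor chain, 4 rose and 2 fell in non-dissected aortas at 7 days, with a list median of 0.21, where 27.1% of all genes were called. Il13ra1, which pairs with the Il4ra chain, rose by 1.65 (SE 0.23; adjusted p = 8.79e-06 in limma), and the feedback inhibitor Socs1 rose by 1.56 (adjusted p = 0.0015). The factor Stat6 itself showed a difference of 0.29 (adjusted p = 0.138 in limma), and Pparg fell by 1.08 (adjusted p = 0.0367). In dissected aortas the counts were again 4 and 2, with a median of -0.01, where 36.5% of all genes were called; Ptpn6, a phosphatase of haematopoietic cells, rose by 2.48 and Il13ra1 by 1.28. The ligand gene Il4 was not tested because its probe was too dim. Klf4, a STAT6 target, differed from saline by 0.76 in non-dissected aortas (adjusted p = 0.0372 in limma) and by -0.75 in dissected ones (adjusted p = 0.0457), and the direct difference was -1.51 (adjusted p = 0.00382 in limma).

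Of 17 other tested markers of alternative activation, 6 rose and 1 fell in non-dissected aortas (median 0.83), where 27.1% of all genes were called. In dissected aortas 6 rose and 1 fell (median 0.60), where 36.5% of all genes were called. The shares of all genes called higher were 14.5% and 18.9%. Chil3, the secreted chitinase-like Ym1, differed from saline by 1.27 in non-dissected aortas (adjusted p = 0.132 in limma) and rose by 3.24, or 9.44-fold, in dissected ones (adjusted p = 0.000448). The difference between these groups, 1.97, did not pass (adjusted p = 0.104). Clec10a, a galactose-type lectin of macrophages and dendritic cells, rose by 1.44 and 2.20, and the scavenger receptor Stab1 by 1.55 and 2.49. The haemoglobin receptor Cd163 rose by 1.55 in dissected aortas (adjusted p = 0.0014 in limma). Cd36, a fatty acid transporter that adipose tissue also expresses, fell by 1.53 and 1.99, and Lyve1, a hyaluronan receptor of lymphatic vessels and resident macrophages, was lower in dissected than in non-dissected aortas, by a log2 difference of -2.51 (adjusted p = 0.0477 in limma).

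Of 20 tested markers of classical activation, 5 rose and 0 fell in non-dissected aortas (median 0.21), and 7 rose and 1 fell in dissected aortas (median 0.32). The counts called in both directions together were near the 27.1% and 36.5% of all genes called in these comparisons. Almost all of these calls were rises, and 14.5% and 18.9% of all genes were called higher. The cytokine gene Il1b rose by 1.44 (adjusted p = 0.0189 in limma) and 3.02 (adjusted p = 2.04e-05), and the factor Irf5 by 1.49 and 1.91. Il6 was not well above background in saline and was at least 2.55-fold higher in non-dissected and at least 2.26-fold higher in dissected aortas. The interferon-induced chemokine Cxcl10 rose by 1.23 in dissected aortas, whereas the guanylate-binding protein gene Gbp2 fell by 0.82.

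Around arginase, the genes that use arginine and ornithine showed 6 rises and 1 fall of 21 in each of the comparisons with saline at 7 days, with medians of 0.10 in both. In both directions together that is near the 27.1% and 36.5% of all genes called there. The shares of all genes called higher were 14.5% and 18.9%. Odc1, which turns ornithine into the polyamine putrescine, rose by 0.95 (adjusted p = 0.000302 in limma) in non-dissected and 0.92 (adjusted p = 0.000429) in dissected aortas. Pycr1, of the route from ornithine-derived intermediates to proline, rose by 1.60 and 1.08. Smox, spermine oxidase, was higher in dissected than in non-dissected aortas by 1.07 (adjusted p = 0.00187 in limma). Oat, the aminotransferase that moves ornithine toward proline, was lower there, by a log2 difference of -1.22 (adjusted p = 0.0275). The mitochondrial arginase gene Arg2 was too dim to test.

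The interleukin 10 receptor and genes listed with its signalling were measured although Il10 was not. Whether interleukin 10 changed any of them was not tested. Of 12 genes, 5 rose and 0 fell in non-dissected aortas (median 0.58), and 9 rose and 0 fell in dissected ones (median 0.94), where 14.5% and 18.9% of all genes were called higher. Il10ra, the ligand-binding chain, rose by 1.92 (adjusted p = 0.000274 in limma) and 2.62 (adjusted p = 5.4e-06). Hmox1, the haem-degrading enzyme, rose by 1.82 and by 4.29, the latter 19.6-fold (adjusted p = 2.05e-06 in limma). Hmox1 and the factor Maf were also higher in dissected than in non-dissected aortas, by 2.47 (adjusted p = 0.0159) and 1.07 (adjusted p = 0.00163).

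**Figure D5:**
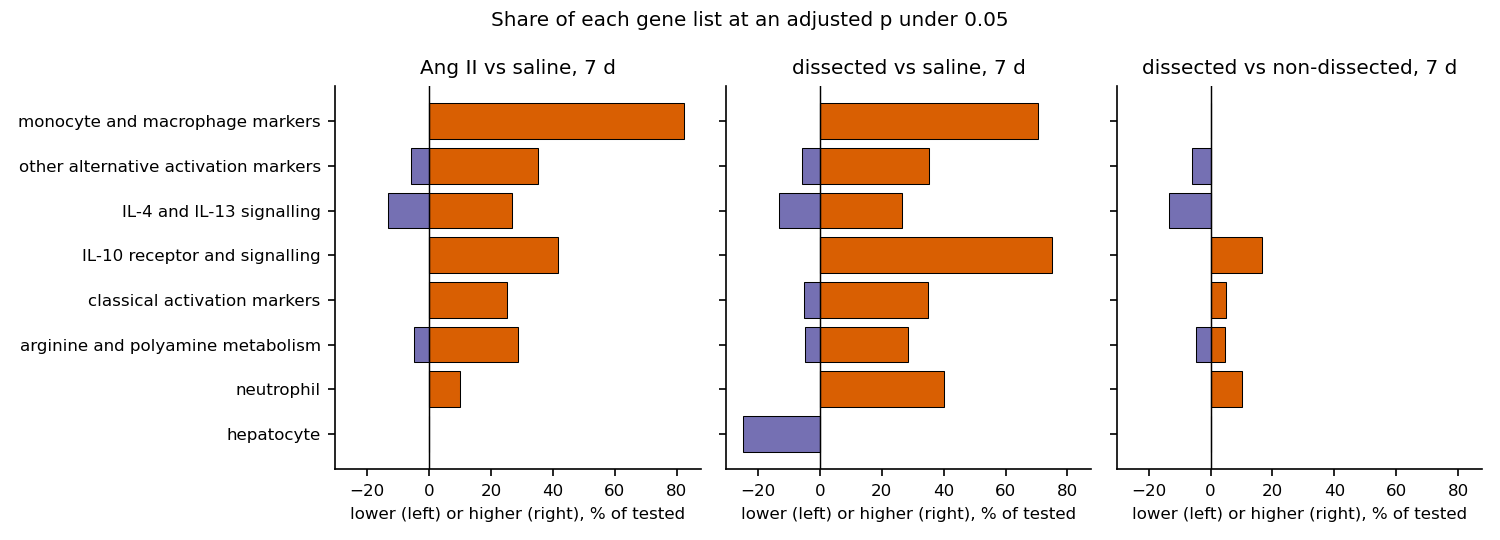
The share of tested genes of each list that was higher (right of 0, orange) or lower (left of 0, purple) at an adjusted p under 0.05 in 3 comparisons at 7 days. The macrophage list reaches 14 of 17 and 12 of 17 genes against saline and 0 of 17 between dissected and non-dissected aortas.

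At 14 days 0 genes of the signalling, activation, arginine, interleukin 10 and macrophage lists passed in limma, and the macrophage median was 0.71. At an unadjusted p under 0.05 the counts were 8 of 17 macrophage markers, 3 of 17 other alternative activation markers, 2 of 15 interleukin 4 and 13 signalling genes, 1 of 20 classical markers, 5 of 21 arginine genes and 4 of 12 interleukin 10 genes, where 18.4% of all genes were under it. At 28 days 6 of 17 macrophage markers rose (median 1.17), with Mpeg1 higher by 2.23, and of the activation and interleukin 10 lists Il10ra rose by 1.94, and Cd38 rose too. Without the 3 compressed arrays, 2 of them in that saline group, 8 genes of the whole array were called at 28 days in limma, against 168 with them. In the mean over times 13 of 17 macrophage markers, 8 of 17 other alternative activation markers and 2 of 20 classical markers rose. So did 3 of 15 interleukin 4 and 13 signalling genes, 7 of 21 arginine genes and 7 of 12 interleukin 10 genes. Of all genes 15.6% were called higher there. Among these lists only the arginine list had genes that fell, 2 of 21.

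The genes whose levels followed each member most closely over the 35 aortas were listed as a description, since the arrays share 1 reference RNA and the same groups. For Arg1 the closest were Treml4 (Pearson r = 0.80), B430306N03Rik (0.77), Pram1 (0.76), Preb (0.76) and C5ar2 (0.76). Their Spearman rho was lower, from 0.37 to 0.53, and of these 5 Pram1 was also among the 5 closest by deviations from the group means. For Mrc1 they were Folr2 (0.90), Adgrd1 (0.89), Fcrls (0.87), Clec4a2 (0.87) and Col14a1 (0.87), and Folr2 remained among the 5 closest when deviations from the group means were used (0.83), behind Lyve1 (0.85). For Il4ra, Oas1f and Jaml reached 0.91, and Jaml also led among deviations (0.81). For Retnla they were the unnamed transcript TC1655572 (0.80), Ntrk3 (0.77), Abca8a (0.77), Vps13d (0.76) and ENSMUSG00000052629 (0.76), of which 0 were among the 5 closest by deviations.

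Among the members themselves, Il4ra correlated with Arg1 at 0.61 and with Mrc1 at 0.56 over the 35 aortas, and Arg1 with Mrc1 at 0.30. Retnla gave -0.34 with Arg1, -0.40 with Il4ra and 0.12 with Mrc1. The mean of the macrophage markers correlated at 0.84 with Il4ra, 0.75 with Mrc1 and 0.51 with Arg1, and the neutrophil mean at 0.63 with Arg1. Other lists followed Il4ra and Mrc1 as closely. Mrc1 correlated at 0.75 with the fibroblast and adventitia mean and at 0.83 with the other alternative activation markers. Il4ra correlated at 0.91 with the interleukin 10 list. Retnla's correlation with the mean of 8 mast cell and eosinophil genes was 0.62.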

How the data were processed

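RNA of 35 aortas (Cy5, after linear amplification of 500 ng) was hybridised with Stratagene Universal Mouse Reference RNA (Cy3, labelled by direct reverse transcription) on 2-colour Agilent arrays with no dye swap, per the labels' protocols. The submitters' processing notes name Agilent Feature Extraction (version 9.5.3.1) as the software that made the scanner output, which the authors deposited for each array. Per the file headers, the deposited intensity values are the mean pixel signal and the local background of every spot, per channel, and the log10 ratio of aorta to reference is the software's own after its background subtraction and dye normalisation. The deposited table of the whole series, made by the authors, is on a log2 scale: its columns followed the log10 ratios with slopes of 3.321 to 3.341 (r of 0.9861 to 0.9998) and medians of -0.06748 to 0.1086. It was used as an alternative only.

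Mean signals were corrected for local background with normexp (offset 50) and normalised by loess within each array. Control spots (1639) were left out of the tests, and spots of 1 probe were averaged over 43379 gene spots. Probes well above background in the aorta channel on fewer than 3 arrays were removed, which left 27825 probes, and the brightest probe stood for each of 18671 genes. Names came from RefSeq accessions (24375 probes), current symbols (6301) or older symbols (2426), and otherwise were kept as in the files (8072). Group means of the 7 groups were fitted in limma 3.58.1 (R 4.3.3, data.table version 1.17.8, statmod version 1.5.0) with 28 residual and 2.717 prior degrees of freedom, and p-values were adjusted by Benjamini-Hochberg over all genes at a threshold of 0.05. The procedure was tested on simulated data. For arrays, their number limits the precision.

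A fold is given as "at least" where a probe was not well above background on any array of 1 group, from the bright group's mean over the higher of the dim probe's own value and the lowest signal well above background. Named genes are the members, the largest called changes and genes of described role in each list, and the 5 genes closest to each member by Pearson r. The members and gene lists were chosen with earlier results of these data known. The labels do not say whether replicate numbers pair the aortas, and the main fit did not pair them. Alternatives covered background, normalisation, filters, probes, slide and scan day, marker levels, array weights, the fitted groups and single arrays left out. The wide fitted background on 3 arrays was found after the values were seen, and the alternatives for it were added then.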

Additional observations from a re-analysis of the deposited data

Results flagged for a closer look

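Within 24 sets of values (1 tested gene in 1 group of 4 to 6 aortas), 3 had an aorta far from the rest of its group by Dixon's criterion; chance gives about 1 in 20. Arg1 stood at 4.54 in replicate 4 of the saline 14-day group, whose other aortas lay between -0.07 and 1.18. Arg1 stood at 5.00 in replicate 5 of the Ang II 28-day group, whose other aortas lay between -0.04 and 0.49. Retnla stood at 1.98 in replicate 5 of the saline 7-day group, one of the 3 arrays with a wide fitted background, and at 3.67 on the same array with no local background subtracted.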

How the results depend on the processing

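Arg1 was higher in dissected than in saline aortas in all 19 alternatives run (2.00 to 4.67) and with each single aorta left out (3.41 to 4.30), and was called each time. With the macrophage mean subtracted (2.00), 17566 of 18671 genes were called in this comparison, so the call there carries little weight. The processed signals and the series table both gave 4.13, and are not independent alternatives. Arg1 in dissected against non-dissected aortas kept its direction in all 19 (2.21 to 4.04) but was called in 6. Il4ra and Mrc1 at 7 days were called in 18 and 16 of 20. Retnla in dissected against saline aortas was called in 14 of 19 and lost its call with scale normalisation, a background offset of 0 (-0.91), processed signals, the series table and within the later scan day. Its call with the macrophage mean subtracted, 1 of the 14, also carries little weight. Signal over background is a limit for every member but Il4ra: the reference was well above background on 13 of 35 arrays for Arg1, 10 for Mrc1, 30 for Retnla and 0 for Nos2, and Il10 was above it in 1 aorta.

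The labels do not say whether replicate numbers pair the aortas, and the main fit did not pair them. Among 14 same-numbered pairs, 6 had deviations correlated above 0.1 (range -0.397 to 0.594). At 14 days the values ran from 0.041 to 0.594, so these correlations do not settle the question. With the replicate block no member's call changed, and Arg1 in dissected against non-dissected aortas was 3.43 (adjusted p = 0.0444 in limma). The counts of genes called were 4930 at 7 days, 533 at 14 days, 133 at 28 days, 5407 in the mean over times, 7127 for dissected against saline and 1930 for dissected against non-dissected, against 5069, 449, 168, 5087, 6818 and 1500 without it. No sample was crossed.

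The following values changed direction, and the cause was not tested. Within the later scan day Arg1 gave -1.37 at 14 days and -0.10 at 7 days, Mrc1 0.066 in dissected against non-dissected aortas and Retnla 0.61 at 7 days. With the macrophage mean subtracted Arg1 gave -1.13, -0.093 and -0.28 at 7, 14 and 28 days and -0.50 in the mean over times; Il4ra gave -0.16 at 7 days, -0.15 at 28 days and -0.032 in the mean; Retnla gave -0.22 at 14 days, -0.85 at 28 days and -1.06 in the mean. Without replicates 2 and 4 of the Ang II 14-day group Arg1 gave -0.18 at 14 days. With scale normalisation between arrays Mrc1 gave -0.93 at 28 days and Retnla -0.024 at 14 days, -3.67 at 28 days and -1.47 in the mean. With the scanner's processed signals, and with the series table, Retnla gave 0.39 at 7 days, -0.23 at 28 days and 0.048 in dissected against saline, and Mrc1 0.15 in dissected against non-dissected. That Mrc1 value was also 0.38 with no offset, 0.18 with the scan day as a block, 0.12 with the slide as a block, 0.19 with array weights and 0.012 with hepatocyte and adipocyte means as covariates. Retnla at 7 days was 0.072 with no offset. Retnla at 28 days and in the mean was -0.34 and -0.28 with no local background, -0.80 and -0.63 with the aorta channel alone, and -0.33 and -0.31 without the 3 compressed saline arrays. The Retnla mean was -0.011 with the slide as a block, -0.022 with array weights, -0.024 with the covariates, -0.044 with median centring, -0.064 with the mean of both probes and -0.089 within the earlier scan day. Leaving out single aortas gave Arg1 at 14 days -0.49 to 1.08, Mrc1 in dissected against non-dissected -0.47 to 0.17, and Retnla -0.034 to 0.66 at 28 days and -0.11 to 0.15 in the mean.

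The number of called members moved as follows, in limma. At 7 days (2) it was 1 with scale normalisation, within the earlier scan day and with the macrophage mean subtracted, and 0 within the later day. In the mean over times (2) it was 1 with scale normalisation, within the later day and with the macrophage mean subtracted. In dissected against saline (4) it was 3 with processed signals, the series table, an offset of 0 and within the later day, 2 with scale normalisation and with the macrophage mean subtracted, and 2 to 4 with single aortas left out, the 2 being without dissected replicate 1. In dissected against non-dissected (1) it was 0 with median centring, scale normalisation, processed signals, the series table, no filter, scan day or slide as a block, within the later day, the macrophage mean subtracted and the aorta channel alone, 2 with no local background and 3 with array weights, and 0 to 1 with single aortas left out. At 28 days (0) it was 2 with scale normalisation, 1 with the slide as a block and within the later day, and 0 to 1 with single aortas left out. Across the saline times (0) it was 2 with scale normalisation. The count over all genes at 7 days ran from 206 within the later scan day, with 1 Ang II array, to 17576 with the macrophage mean subtracted, which moves every gene.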
